A study of Mus musculus with 3 samples.

Results

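The genes described here code for the calcium release machinery of the skeletal muscle triad and comprise Ryr1, Ryr3, Trdn, Jph1, Jph2, Cacna1s, Cacnb1, Cacna2d1, Cacng1 and Stac3. They were chosen by symbol from a table of read counts, and all 10 were found among its 20162 genes. Polyadenylated RNA came from 3 populations of C2C12, an established mouse myoblast line that fuses into multinucleated myotubes. Every population carried a lentiviral short hairpin RNA (shRNA), was held under puromycin selection and was kept for 7 days in medium with 2% horse serum. The control library (title C2C12_ShSC) had a control shRNA, and the libraries called A and B here (C2C12_ShA and C2C12_ShB) had 2 different shRNAs against Tead4, which encodes a transcription factor with a TEA DNA-binding domain. The labels describe infected populations and no repeated culture of any shRNA. Every p-value therefore rests on the spread between libraries A and B alone, largely pooled over all tested genes. That spread may be technical variation, which cannot be told apart from a difference between the 2 shRNAs.

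In skeletal muscle a triad is the junction at which a transverse tubule, an infolding of the surface membrane, meets the sarcoplasmic reticulum. The voltage-sensing calcium channel of the tubule, built around the Cacna1s subunit, is coupled mechanically to the release channel RyR1 of the reticulum, so that depolarization releases stored calcium and starts contraction. Junctophilins hold the membranes together, triadin anchors the calcium store to the release channel, and Stac3 is required for the tubule channel to be placed and to couple.

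Libraries held between 15594305 and 19918954 counted reads. Tead4 itself measured 78.2, 19.7 and 10.8 CPM (depth-scaled counts, with edgeR's TMM factors applied to the library sizes) in the control, A and B libraries, so the targeted gene was lower in both libraries labelled as its knockdown. A gene is said to have risen or fallen where it passed edgeR's quasi-likelihood F test of libraries A and B together against the control, adjusted over all 14478 tested genes with a threshold of 0.05; by that rule 4.48% of tested genes fell and 5.34% rose. All 21 measured myotube markers had reads in every library. Their summed level was 38872 CPM in the control library, 24923 in A and 30228 in B, and 10 fell and 1 rose. Of 11 markers of undifferentiated or dividing myoblasts, 8 rose and 1 fell, with summed levels of 132, 280 and 280 CPM. Those that rose were the cell cycle genes Mki67, Top2a, Ccnb1, Ccna2, Aurka and Bub1, together with Cd34 and Id1. Myf5 was the 1 that fell (log2 fold change -1.35), and Pax7 and Id3 were not called. Smooth muscle markers also rose in 3 of 5 tested members (summed 1708, 4116 and 3203 CPM), with Myh11 at 3, 5 and 0 reads, whereas fibroblast markers rose in 0 of 5 and fell in 1 (992, 1272 and 824 CPM). The part of these cell type markers in the triad results was not tested, and in bulk RNA fewer myotubes and less RNA per myotube cannot be told apart.

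Transcripts of the release channels, the tubule channel's pore and beta subunits, triadin and 1 junctophilin fell with Tead4 shRNA, whereas Jph2, the other junctophilin measured in quantity, was at 102% and 99.1% of its control level. The 6 genes that fell were Ryr1, Ryr3, Trdn, Jph1, Cacna1s and Cacnb1, each to between 38.9% and 69.8% of its control level in a given library. Not passing the test were Cacna2d1, Cacng1, Stac3 and Jph2, and 0 of the 10 rose. Over all tested genes 4.48% fell and 5.34% rose. The median log2 fold change was -0.76 over the 10 triad genes and 0.02 over all tested genes. The triad genes were chosen with earlier results of these data known, so these contrasts are descriptive only. All 10 triad genes passed the filter on low counts, with 661 to 19853 reads each. Only 1 residual degree of freedom lies behind the test, and the lone control library is assumed to vary like the others. Another 20.9 prior degrees of freedom are lent by the spread pooled over the tested genes.

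**Figure D1:**
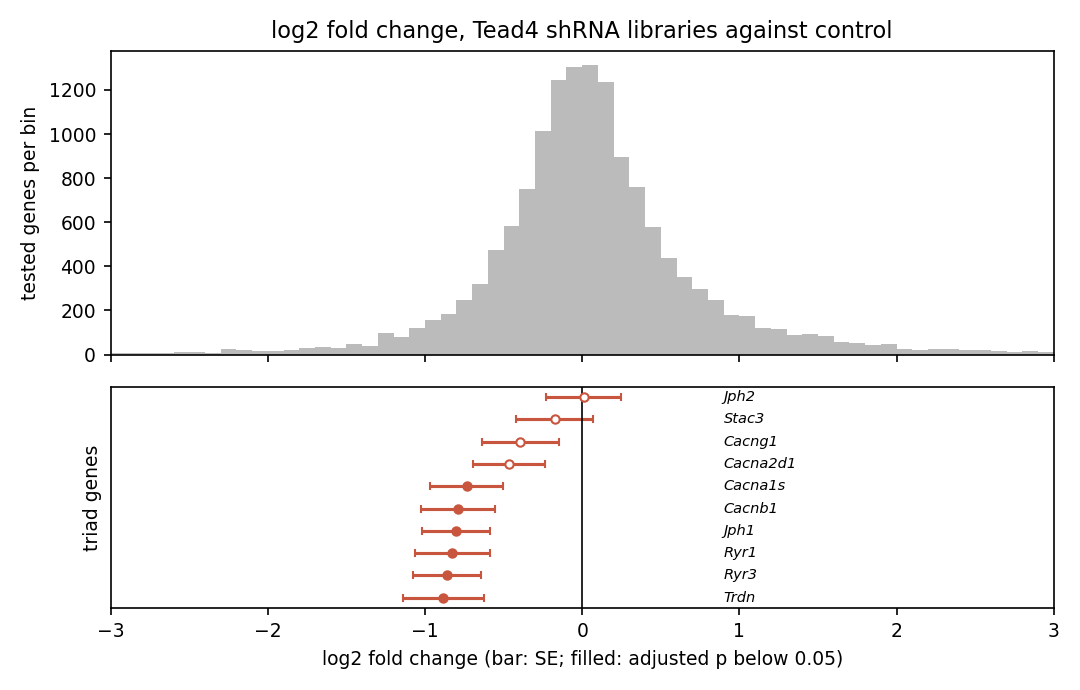
Upper panel: number of tested genes per bin of 0.1 of the log2 fold change of the Tead4 shRNA libraries against the control library, over 14478 genes (values beyond the axis are not drawn). Lower panel: the triad genes with their standard error (SE), filled where the adjusted p is below 0.05; 6 filled points lie between -0.88 and -0.74, and Jph2 lies at 0.01.

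The promoters of 3 of these genes are shown because the knocked-down factor binds DNA and these genes include both a pair that fell and a gene that did not pass the test. Of the 10 genes, 5 had an entry in the RefSeq promoter table (build GRCm38.p6; windows of 250 bases before to 50 after a start), namely Cacna1s, Cacna2d1, Cacnb1, Jph2 and Ryr1, with 7 windows in all. The TEAD core motif CATTCC, searched on both strands (GGAATG on the other), was found in 1 of the 7 windows (14.3%), that of Cacna1s, and in 14.7% of all 32851 windows. The E-box CANNTG, which reads the same way on both strands, was found in 4 of the 7 (57.1%) and in 72.3% of all windows. Among those 4 are 2 overlapping Jph2 windows that hold the same E-box, so the windows are not independent. The matches of the 2 motifs in Cacna1s share no base. Cacna1s, which fell, is shown for chr1:136052561-136052749 (plus strand), Ryr1, which also fell, for chr7:29125180-29125401 (minus strand) and Jph2, which did not pass the test, for chr2:163397994-163398243 (minus strand). Only bases before the annotated starts are given, 5′ to 3′ along the gene, with the TEAD core in capitals.
Cacna1s: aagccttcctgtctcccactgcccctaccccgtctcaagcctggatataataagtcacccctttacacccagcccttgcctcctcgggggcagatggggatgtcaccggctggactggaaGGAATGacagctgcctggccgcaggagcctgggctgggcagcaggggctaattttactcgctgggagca
Ryr1: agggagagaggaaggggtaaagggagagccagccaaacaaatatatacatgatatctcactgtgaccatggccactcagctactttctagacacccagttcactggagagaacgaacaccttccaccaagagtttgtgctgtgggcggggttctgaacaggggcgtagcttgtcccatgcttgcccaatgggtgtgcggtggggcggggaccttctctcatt
Jph2: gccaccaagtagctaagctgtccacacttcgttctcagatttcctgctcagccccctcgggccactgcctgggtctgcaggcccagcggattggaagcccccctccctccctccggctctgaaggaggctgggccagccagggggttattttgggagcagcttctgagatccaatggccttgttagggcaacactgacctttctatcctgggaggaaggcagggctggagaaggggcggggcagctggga
In Cacna1s the GGAATG begins at -130 from the RefSeq start, and E-boxes (CAGATG and CAGCTG) begin at -160 and -123. In the printed Ryr1 stretch neither motif occurs, and in that of Jph2 1 E-box (CAGCTG) begins at -9. A match is a description of letters and does not show binding, and binding was not measured here.

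Ryr1, the main release channel of skeletal muscle, had 19853 reads in the control library, 14364 in A and 10733 in B. Scaled for depth these are 1236, 714 and 681 CPM. Both Tead4 shRNA libraries lay below the control, at 57.8% (A) and 55.1% (B) of its level, and close to each other. The log2 ratio to the control was -0.79 in A (95% exact interval -0.82 to -0.76) and -0.86 in B (-0.89 to -0.83). Such intervals cover counting error only. Over both libraries Ryr1 fell by 0.83 on the log2 scale (SE 0.24, edgeR adjusted p = 0.0270). In a later annotation Ryr1 shares 864 exonic bases with Gm26604, an antisense gene that is not among the counted genes, and the library protocol does not mark strand, so reads of such a partner could be counted with Ryr1.

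Ryr3, a second release channel that is less abundant in adult muscle, measured 74.4, 38.5 and 43.3 CPM in the control, A and B libraries, from 1195, 775 and 683 reads. Its levels in A and B were 51.8% and 58.2% of the control. It fell by 0.86 (SE 0.22, edgeR adjusted p = 0.0117), with library ratios of -0.95 (-1.08 to -0.82) and -0.78 (-0.92 to -0.64). Ryr3 shares 916 exonic bases with Aven on the opposite strand in that annotation, so some reads could belong to either gene. Aven had 343, 394 and 297 reads in the same order, fewer than Ryr3 in every library. The share of Ryr3 among the reads of Ryr1, Ryr2 and Ryr3 was 5.68% in the control (95% exact interval 5.37 to 6.00), 5.12% in A (4.77 to 5.48) and 5.98% in B (5.55 to 6.43). That share lay below the control in A and above it in B, and the intervals of A and B each overlapped the control's but not each other. Ryr2, the release channel known from heart, had 1, 6 and 1 reads.

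Trdn codes for triadin, a reticulum membrane protein that binds the release channel and calsequestrin. It had 1357 reads in the control, 661 in A and 930 in B, or 84.5, 32.9 and 59.0 CPM. Triadin showed the widest gap between the Tead4 shRNA libraries of the 10 genes. Its log2 ratio was -1.36 in A (-1.50 to -1.23) and -0.52 in B (-0.64 to -0.40), that is 38.9% and 69.8% of the control. Between A and B directly the log2 ratio was -0.84 (-0.99 to -0.70). Trdn fell by 0.88 over both libraries (SE 0.26, edgeR adjusted p = 0.0323). The call ended with DESeq2 (adjusted p = 0.136, range over all settings 0.00245 to 0.136) and with RLE and upper-quartile scaling (0.0657 and 0.0672).

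Junctophilins tether the reticulum to the tubule membrane, and Jph1 and Jph2 differed here. Jph1, the form enriched in skeletal muscle, had 1750, 1156 and 1066 reads, or 109, 57.5 and 67.6 CPM, in the control, A and B libraries. It fell by 0.80 (SE 0.22, edgeR adjusted p = 0.0192), with ratios of -0.92 (-1.03 to -0.82) in A and -0.69 (-0.80 to -0.58) in B; DESeq2 gave an adjusted p of 0.0521 (range over all settings 0.00700 to 0.0521). Jph2, shared with heart, had 8085, 10339 and 7863 reads, or 504, 514 and 499 CPM. Its 3 libraries lay within a narrow range, and its log2 ratios were 0.03 (-0.01 to 0.07) and -0.01 (-0.06 to 0.03). The log2 fold change of Jph2 was 0.01 (SE 0.24, edgeR adjusted p = 0.991). Jph1 accordingly took 17.8% of junctophilin reads in the control (17.0 to 18.6), 10.1% in A (9.51 to 10.6) and 11.9% in B (11.3 to 12.6). These shares do not depend on the scaling between libraries, and the control's interval lay above both others. No replicate of the control stands behind that difference, so it compares libraries and not conditions. Jph3 and Jph4 had 0 to 2 reads in each library.

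**Figure D2:**
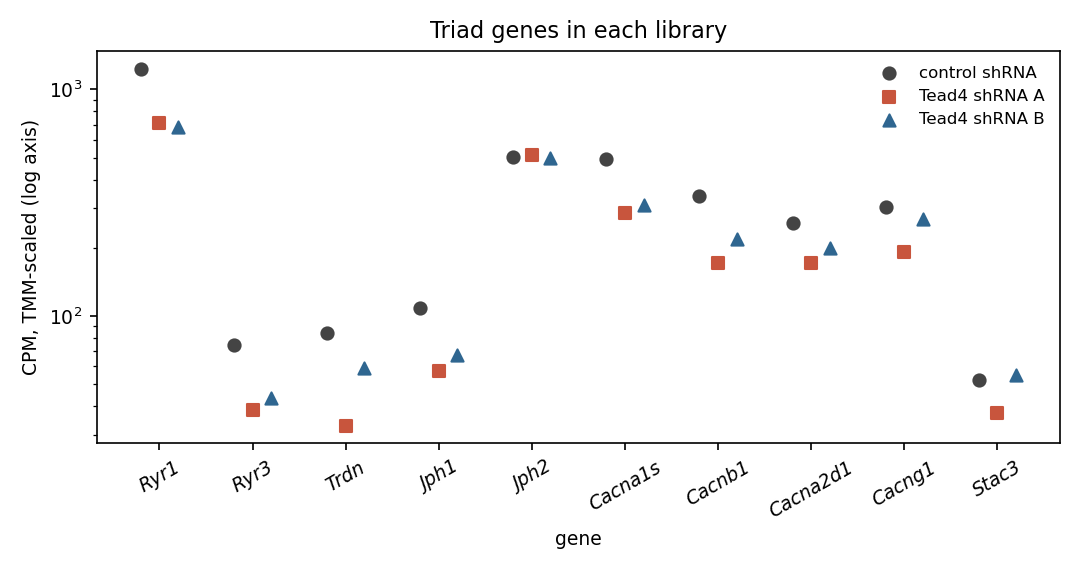
Level of each triad gene in CPM (TMM-scaled, log axis) in the control, A and B libraries, 1 point per library. The control point is the highest of the 3 for every gene except Jph2 and Stac3; Ryr1 spans 681 to 1236 CPM.

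Cacna1s, the voltage-sensing and pore-forming subunit of the tubule channel, had 7961, 5756 and 4879 reads in the control, A and B libraries, or 496, 286 and 310 CPM. Both knockdown libraries stood at around 60% of the control (57.7% and 62.4%). It fell by 0.74 (SE 0.23, edgeR adjusted p = 0.0464), with log2 ratios of -0.79 (-0.84 to -0.74) and -0.68 (-0.73 to -0.63). This call was nearest to the threshold among the 6 and ended under RLE, upper-quartile and total-count scaling (adjusted p = 0.0585, 0.0723 and 0.0600; range over all settings 0.0267 to 0.0723). A noncoding antisense gene, Gm37759, shares 1309 exonic bases with Cacna1s in the later annotation and is not among the counted genes; Cacnb1 and Jph1 share 80 and 34 bases with such uncounted genes. Its cardiac and neuronal relatives Cacna1c and Cacna1d had 0 to 3 reads each, so Cacna1s took at least 99.9% of the reads of the 3 genes in every library.

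Cacnb1 codes for the intracellular beta subunit, which brings the pore subunit to the membrane. It had 5425, 3448 and 3450 reads, or 338, 171 and 219 CPM, and was lower in A than in B. Its log2 ratio was -0.98 in A (-1.04 to -0.92) and -0.63 in B (-0.69 to -0.56). Cacnb1 fell by 0.79 (SE 0.23, edgeR adjusted p = 0.0332), and upper-quartile scaling ended that call (adjusted p = 0.0572, range over all settings 0.0121 to 0.0572). Cacnb3, the other abundant beta subunit, had 164, 132 and 122 CPM and did not pass the test (-0.37, SE 0.22, adjusted p = 0.354). Cacnb1 made up 67.0% of beta subunit reads in the control (65.9 to 68.0), 55.9% in A (54.7 to 57.1) and 63.7% in B (62.4 to 64.9). The share was lower in both knockdown libraries and its interval did not reach the control's in either, but A and B differed more from each other than B did from the control.

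Cacna2d1 codes for the alpha2-delta subunit, an extracellular part of the channel complex. It measured 257, 172 and 201 CPM from 4130, 3458 and 3163 reads. Both libraries lay below the control (-0.58, -0.65 to -0.52, in A and -0.36, -0.42 to -0.29, in B), yet the log2 fold change of -0.47 (SE 0.23) did not pass the test (edgeR adjusted p = 0.245).

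Cacng1, the gamma subunit of the skeletal muscle channel, had 4848, 3857 and 4216 reads, or 302, 192 and 268 CPM. Library A stood at 63.5% of the control and B at 88.6%. With ratios of -0.66 (-0.72 to -0.59) and -0.17 (-0.23 to -0.11), the log2 fold change was -0.40 (SE 0.25, edgeR adjusted p = 0.381).

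Stac3, the adaptor needed for coupling, had 836, 748 and 869 reads, or 52.1, 37.2 and 55.1 CPM. It was below the control in A (-0.49, -0.63 to -0.34) and not in B (0.08, -0.06 to 0.22), and its log2 fold change of -0.18 (SE 0.24) did not pass the test (edgeR adjusted p = 0.760). Stac2, a relative, had 62.3, 87.5 and 75.1 CPM and did not pass it either (0.38, SE 0.22, adjusted p = 0.346). Stac3 took 45.3% of the reads of Stac, Stac2 and Stac3 in the control (43.0 to 47.6), 29.7% in A (27.9 to 31.5) and 42.1% in B (40.0 to 44.3). Only the interval of A was clear of the control's.

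**Figure D3:**
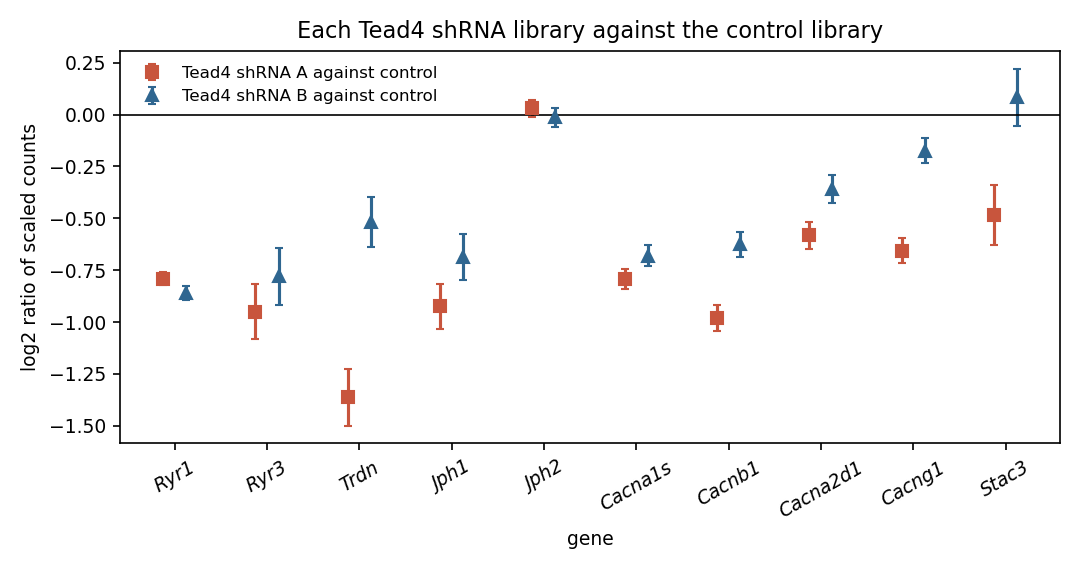
Log2 ratio of TMM-scaled counts of library A (squares) and library B (triangles) to the control library for each triad gene, with 95% exact counting intervals. Ryr1 has nearly the same ratio in both (-0.79 and -0.86), Trdn has -1.36 and -0.52, and the intervals of Jph2 include 0.

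Taken library by library, 7 of the 10 genes in A and 5 in B were at least 1.5-fold below the control with an interval under no change, where 12.8% and 10.0% of all tested genes were. At least 1.5-fold above the control were 0 triad genes in either library, against 16.0% and 12.1% of tested genes. The median log2 ratio of the 10 genes was -0.79 in A and -0.57 in B, and over all tested genes it was 0.0044 and 0.018. Both comparisons share the control library, so they are not independent of each other. Within the pair, 8 genes had a lower level in A than in B by the exact interval of their ratio, and 2 (Ryr1 and Jph2) a higher one, where 25.3% of all tested genes were lower and 25.4% higher by the same rule. For Ryr1 the log2 ratio of A to B was 0.07 (0.03 to 0.10) and for Jph2 it was 0.04 (0.0002 to 0.09), whereas for Stac3 it was -0.57 (-0.71 to -0.43), for Cacng1 -0.48 (-0.54 to -0.42) and for Cacnb1 -0.35 (-0.42 to -0.28). These intervals compare 2 libraries and narrow with read depth, and the shares of all tested genes were not matched for depth. What sets A and B apart was not tested. Tead4 was lower in B than in A, the reverse of the order seen in those 8 genes.

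**Figure D4:**
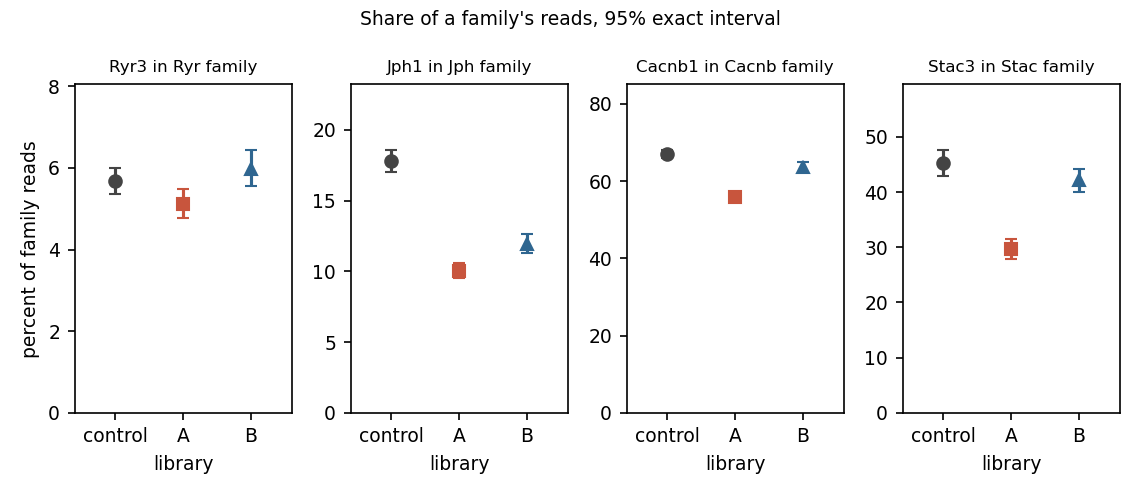
Percent of the reads of a gene family taken by Ryr3, Jph1, Cacnb1 and Stac3 in the control, A and B libraries, with 95% exact intervals; each panel has its own axis from 0. Jph1 goes from 17.8% to 10.1% and 11.9%, while for Ryr3 the intervals of A and B each overlap the control's but not each other.

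Levels between genes were compared per kilobase of exon, using exon lengths of a later annotation (GENCODE M21) that pools all transcripts of a gene and therefore lowers the value of genes with long rare exons. In the control library Cacng1 was highest at 242 CPM per kilobase, followed by Jph2 (118), Cacna1s (75.7), Cacnb1 (74.6) and Ryr1 (56.6). Lower levels were those of Jph1 (21.8), Cacna2d1 (20.7), Stac3 (20.5), Trdn (9.04) and Ryr3 (3.92 CPM per kilobase). Cacng1, Jph2 and then the group of Cacna1s, Cacnb1 and Ryr1 kept the leading places in A and B. Within that group Cacna1s and Cacnb1 exchanged places between A (43.7 and 37.8 CPM per kilobase) and B (47.3 and 48.3), so their order was not fixed. Ryr1 stood at 32.7 and 31.2. Jph1 passed from above to below Cacna2d1 and Stac3, with 11.5 and 13.5 CPM per kilobase against 13.8 and 16.2 for Cacna2d1 and 14.6 and 21.7 for Stac3 in A and B. The 10 genes together took 0.338% of all reads in the control, 0.224% in A and 0.243% in B.

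Other genes of the triad and of calcium release were mostly not called. Of 57 listed, 50 were in the table and 41 were tested. Among the 41, 4 fell, 2 rose, and the median log2 fold change was 0.06. That median pools unlike lists. Transverse tubule formation had a median of -0.53 and calcium pumps 1 of -1.37, both below 0 like the triad genes. The other lists had medians of 0.06, 0.17 and 0.37. The share of all tested genes was 4.48% lower and 5.34% higher, so 2 of 41 higher is near the background. Those that fell were the reticulum calcium buffer Casq1, the pumps Atp2a2 and Atp2a3 and Mtm1, a lipid phosphatase known from triad formation. Those that rose were Cacna2d2, a paralog of the alpha2-delta subunit, and Itpr1, a release channel opened by inositol trisphosphate.

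Among 17 tested junctional reticulum genes and channel regulators, 1 fell and 0 rose (median 0.17). Casq1, the fast-muscle calsequestrin that triadin tethers, had 4249, 1317 and 1341 reads in the control, A and B libraries, or 265, 65.5 and 85.1 CPM. It fell by 1.81 (SE 0.23, edgeR adjusted p = 9.88e-06), and both knockdown libraries were far below the control. Its relative Casq2 measured 981, 680 and 804 CPM (-0.40, SE 0.24) and Srl, a glycoprotein of the reticulum, 893, 1036 and 1332 CPM (0.41, SE 0.26). Neither passed the test. A and B lay on the same side of the control for each of them, below for Casq2 and above for Srl.

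Of 5 genes of transverse tubule formation, 1 fell and 0 rose (median -0.53), and all 5 had a log2 fold change below 0. Mtm1 had 348, 208 and 213 reads, or 21.7, 10.3 and 13.5 CPM, and fell by 0.86 (SE 0.27, edgeR adjusted p = 0.0432). Its call ended under RLE, upper-quartile and total-count scaling and with DESeq2 (adjusted p = 0.0602, 0.0692, 0.0519 and 0.249). The membrane-bending protein gene Bin1 measured 1622, 1046 and 1194 CPM (-0.53, SE 0.24), Dnm2 172, 183 and 150 CPM (-0.05, SE 0.23) and the repair protein gene Dysf 161, 135 and 128 CPM (-0.29, SE 0.22), all not called.

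Calcium pumps return calcium to the reticulum, and 2 of the 3 tested fell (median -1.37). Atp2a2, the pump of slow muscle and other tissues, had 66000, 29356 and 27231 reads and fell by 1.37 (SE 0.24, edgeR adjusted p = 5.74e-04). Atp2a3 had 291, 32 and 32 reads and fell by 3.33 (SE 0.35). Atp2a1, the fast-muscle pump, measured 1735, 1008 and 1267 CPM and was not called (-0.61, SE 0.25, adjusted p = 0.135).

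Of the 8 tested paralogs, 1 rose and 0 fell (median 0.37). Cacna2d2 had 4 reads in the control, 38 in A and 56 in B, and rose by 3.40 (SE 0.84, edgeR adjusted p = 0.0103). DESeq2 and limma-voom did not call it (0.0523 and 0.0570). At 0.249, 1.89 and 3.55 CPM it passed the filter on low counts only through A and B, where it is high. Cacna2d2 remained a small part of the reads of Cacna2d1, Cacna2d2 and Cacna2d4, at 0.0968%, 1.09% and 1.74%, the rest being Cacna2d1. Cacna2d3 was not among the counted genes, so these are not shares of all alpha2-delta reads. Cacnb2, with 2.43, 3.33 and 2.92 CPM, was not called. Of the 8 tested genes of store-operated entry and inositol trisphosphate receptors, 1 rose and 0 fell (median 0.06). Itpr1 had 213, 602 and 365 reads and rose by 1.0 (SE 0.26, edgeR adjusted p = 0.0167), a call that DESeq2 did not make (0.0921). Itpr3 (121, 160 and 103 CPM), Stim2, a calcium sensor of the reticulum (81.5, 102 and 129 CPM) and its relative Stim1 (73.1, 55.5 and 67.8 CPM) were not called. For Itpr3 and for no other gene of these 3, A and B lay on opposite sides of the control.

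**Figure D5:**
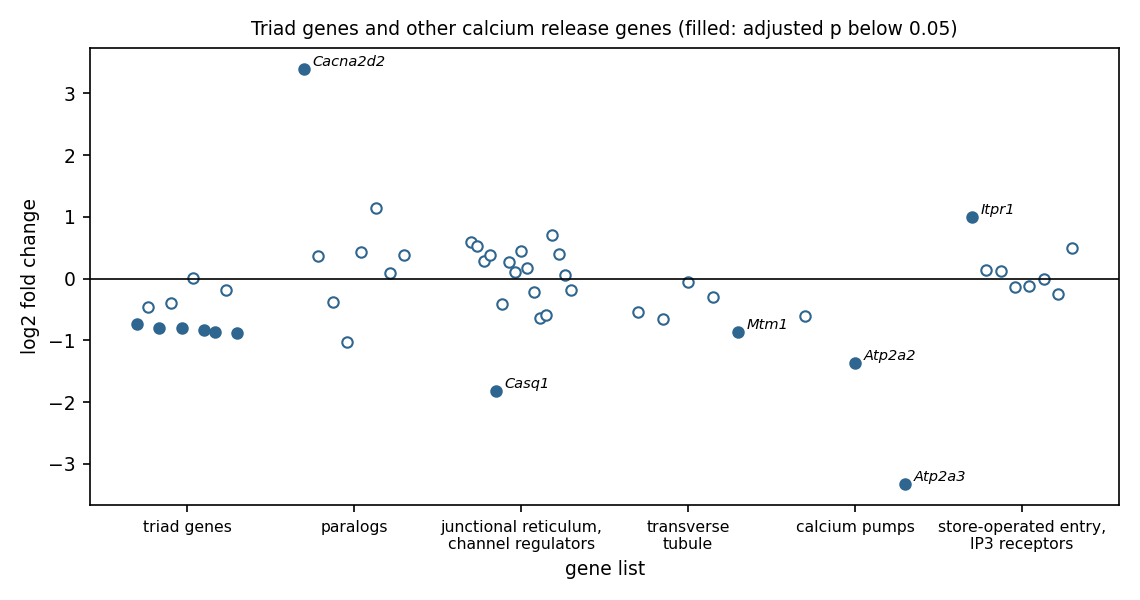
Log2 fold change of the triad genes and of 5 lists of related genes, 1 point per tested gene, filled where the adjusted p is below 0.05; called genes outside the triad list are named. Filled points of the triad list all lie below 0, while the other lists hold 4 filled points below 0 and 2 above.

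The genes most like Ryr1 were sought by the distance in the plane of both log2 ratios among 7941 tested genes with a mean of at least 20 CPM. Ptrh2, Creld1, Ascc3, Trabd and Nfkb2 were the 5 nearest, at distances of 0.00280 to 0.0353, and 29 genes lay within 0.1. Their ratios ran from -0.83 to -0.78 in A and from -0.89 to -0.84 in B. This likeness rests on 3 libraries, and none of the 5 is on the triad or calcium lists.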

How the data were processed

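Polyadenylated RNA was sequenced as single-end reads of 72 bases from 3 C2C12 libraries, per the labels' protocols. The authors deposited 1 table of raw counts, with Ensembl genes in rows and libraries in columns. Its normalized values are a score with no unit: each deposited value equals the raw count times 1 factor per library (1.003, 0.801 and 1.018 for control, A and B), rounded. Tools named in the submitters' processing notes are DESeq, Cufflinks 0.8.2 and TopHat 1.0.12, with build mm9; their roles, the counting program and how multiply mapping reads were handled are not given in the sources used here.

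Raw counts were filtered with filterByExpr (14478 genes kept), scaled by TMM and tested with edgeR 4.0.16 in R 4.3.3 (glmQLFit and glmQLFTest, Benjamini-Hochberg adjustment, threshold 0.05), comparing libraries A and B with the control. The value that edgeR names the biological coefficient of variation was 16.4%. It was estimated from libraries A and B, which are not biological replicates of 1 shRNA. Each SE is the size of the log2 fold change over the square root of its F value. Library ratios and shares carry 95% exact (Clopper-Pearson) intervals for counting error only, since PCR reads without molecular identifiers are not independent molecules. The script was tested on simulated data. RLE, upper-quartile and total-count scaling, no filter, DESeq2 1.42.0 and limma-voom 3.58.1 were alternatives, and edgeR's newer quasi-likelihood method was added after seeing the data. GENCODE M21 lengths matched 18701 of 20162 identifiers; its build differs from mm9, so no coordinates were taken for counts, and promoters carry GRCm38.p6 coordinates. The triad genes, lists and markers were chosen with earlier results of these data known. Named genes are all triad genes, each called gene of the other lists, up to 3 others per list by mean CPM, and the 5 genes nearest to Ryr1; 1 gene that the rule names is not reported here.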

Additional observations from a re-analysis of the deposited data

How the results depend on the processing

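The calls of Ryr1 and Ryr3 held under all 8 settings (the main one, 6 alternatives and the newer quasi-likelihood method, which was chosen after seeing the data), with adjusted p-values of 0.00920 to 0.0472 and 0.00362 to 0.0429. The number of triad genes that fell was 6 with TMM, with no filter, with limma-voom and with the newer method, 5 with total counts, 4 with RLE scaling and with DESeq2, and 3 with upper-quartile scaling; 0 rose under any of them. Jph2 changed sign around 0, at -0.000412 with RLE scaling and -0.000409 with DESeq2. Of the other calcium release genes, 2 rose with TMM, RLE and upper-quartile scaling and with the newer method, 3 with total counts and with no filter, 1 with limma-voom and 0 with DESeq2. Those that fell numbered 4 with TMM, no filter, limma-voom and the newer method and 3 with RLE, upper-quartile and total-count scaling and with DESeq2. Over all tested genes DESeq2 called 374 lower and 448 higher, against 649 and 773. The cause of these differences was not tested. RLE, total-count and the deposited factors each moved the median library ratio of all tested genes by under 0.1. That shift was not measured for upper-quartile scaling. A shift of that size does not mean that calls held. Cacna1s was at -0.735 with TMM (edgeR adjusted p = 0.0464) and at -0.695 with upper-quartile scaling (edgeR adjusted p = 0.0723). Without library A or B, 1 library stands against 1, so no count of calls could be made, and the values are the library ratios given above; without A, Trdn is at -0.52. No paired analysis was possible because the labels carry no replicate numbers and the control group has 1 library.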
